A study of Rattus norvegicus with 12 samples.

Results

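The 9 genes described here handle zinc inside the cell: the SLC30 zinc exporters Slc30a1, Slc30a4, Slc30a5, Slc30a6, Slc30a7 and Slc30a9, the metallothioneins Mt1 and Mt2A, and the metal-sensing transcription factor Mtf1. They were chosen by gene symbol from the 18483 genes listed and not by a cut-off on their values, but with earlier results of these data known. All 9 passed the filter on low counts, which kept 13967 genes for testing. RNA-seq was done on neonatal rat ventricular myocytes (NRVMs) from Sprague-Dawley rats in 12 samples, 3 independent biological replicates in each of 4 groups that differ in siRNA (siNeg or siSlc39a2) and in stimulus (none or PE, written siNeg PE and siSlc39a2 PE). Every culture was kept in DMEM with insulin, transferrin, selenium, penicillin and streptomycin, and every culture was transfected with an siRNA. siNeg is the negative control siRNA and siSlc39a2 targets Slc39a2, a zinc importer of the SLC39 family. PE (phenylephrine, an agonist of the alpha1-adrenergic receptor that makes cardiomyocytes grow) was added 12 h after transfection for 36 h according to the labels, while the paper's culture methods give a longer time, and the groups without PE were untreated. The knockdown rests on an siRNA of a single sequence, and the cells were separated from other heart cells by a density gradient, so each sample is a culture enriched in cardiomyocytes and not a pure one.

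Zinc enters the cytosol through the SLC39 importers and leaves it through the SLC30 exporters, which move it out of the cell or into organelles, while Slc30a9 moves it out of mitochondria. Metallothioneins are small cysteine-rich proteins that bind zinc and copper and buffer both. MTF1 has zinc fingers that sense free zinc. When zinc is high, MTF1 enters the nucleus and binds metal response elements in the promoters of the metallothioneins and of Slc30a1, so transcripts of these genes are widely read as a gauge of available zinc. In cardiomyocytes zinc also bears on excitation-contraction coupling, redox balance and growth signalling. With a fluorescent zinc probe, the paper measured less zinc inside NRVMs after PE and after Slc39a2 knockdown. The RNA-seq values hold no measure of zinc itself.

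The question put to the data was whether the transcripts of zinc export and buffering differed after knockdown of an importer, after the hypertrophic stimulus and after both. After knockdown Mtf1, Slc30a1, Slc30a9 and Mt2A were higher, each by less than 2-fold, and no member was lower. Such calls were common, as 22.8% of all genes tested were higher and 26.4% lower in that comparison. PE lowered Mt1, Mt2A and Slc30a6 in control cells and raised Slc30a4 and Slc30a9, where 24% of all genes were higher and 25.7% lower. The PE calls of Mt2A and Slc30a6 were lost without single samples. For no member did the knockdown effect with PE differ by the interaction test from the knockdown effect without PE (3.61% of all genes called).

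The samples held 24065539 to 28603854 expected counts each. Slc39a2 had 50, 50 and 59 of them in siNeg cells against 21, 11 and 2 after knockdown, and it fell by 80.4% (adjusted p = 0.00098). With PE it had 95, 198 and 182 in siNeg PE and 31, 25 and 38 in siSlc39a2 PE, a fall of 80.1% (adjusted p = 0.000224), so both knockdown groups carried less of the targeted transcript, and PE raised it in siNeg cells 2.77-fold (adjusted p = 0.00541). The hypertrophy marker Nppa rose with PE 24.8-fold in siNeg and 23.5-fold in siSlc39a2. It was also higher after knockdown alone, with 2531 to 3058 expected counts in siNeg and 5566 to 6894 in siSlc39a2. The marker Nppb had 181 to 249 in siNeg and 6355 to 10069 in siNeg PE. In knockdown cells Nppb had 1430 to 1756, and 37893 to 44274 with PE. All 8 cardiomyocyte markers were detected in every group. Their summed FPKM (fragments scaled to gene length and library size) was 20214 to 21460 in siNeg and 26318 to 27988 in siNeg PE. It was 20678 to 21178 after knockdown and 30410 to 33064 with both. For PE in siNeg 2 were higher and 3 lower. After knockdown 0 were higher and 2 lower, and after knockdown with PE 1 was higher and 3 lower. Summed fibroblast markers were 2520 to 3436 FPKM in siNeg and 1810 to 2362 in siNeg PE, with 2 higher, 4 lower and 2 not called. After knockdown they were 1114 to 1220 FPKM, and 743 to 1042 with PE. Of these 8 markers 6 were lower, 1 higher and 1 not called after knockdown, both without and with PE. Smooth muscle and pericyte markers summed to 983 to 1073 FPKM in siNeg and 438 to 445 in siSlc39a2, with 6 of 6 lower, but with PE their sums overlapped (803 to 1043 in siNeg PE and 846 to 926 in siSlc39a2 PE), with 1 higher, 1 lower and 4 not called. Macrophage markers summed to 13.3 to 16.1 FPKM in siNeg, 9.05 to 9.70 in siNeg PE, 11.7 to 12.2 after knockdown and 7.33 to 8.30 with both, with 0 higher and 3 lower of 6 tested for PE in siNeg and 0 higher and 2 lower after knockdown. Endothelial markers summed to between 4.22 and 7.07 FPKM in every sample. Erythroid markers summed to at most 0.50 FPKM outside siSlc39a2 and to 1.82 to 2.98 in it, with 3 of 5 listed and Alas2 at 0 in the other 3 groups. Slc4a1, the anion exchanger of red cells and the only erythroid marker tested, had 10, 7 and 2 expected counts in siNeg and 272, 242 and 168 in siSlc39a2 (log2 fold change 5.01, adjusted p = 7.41e-07), and it was also higher after knockdown with PE (3.34, adjusted p = 0.000262); it was named after its values were seen. The part of these non-myocyte transcripts in the results below was not tested. Of all genes tested, 22.8% were higher and 26.4% lower after knockdown, and 24% and 25.7% with PE in siNeg. After knockdown with PE the shares were 29.2% and 28.1%. In such bulk samples fewer cells of a type and less RNA per cell cannot be told apart.

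The promoters were searched for the core of the sequence that MTF1 recognises. This core of the metal response element was spelled as TGCACNC and TGCGCNC on both strands in the 250 bases before the annotated start of each gene, with promoter sequences from RefSeq on build GRCr8. The processed files use Rnor_6.0, and no coordinate was carried from one build to the other. The table matched 8 of the 9 members, all but Slc30a7. Of 33469 promoters of that length, 20.6% held at least 1 match, 4.9% at least 2, 0.266% at least 4 and 0.0269% at least 6. The promoters of Mt1 (chr19:10832976-10833225, minus strand), Mt2A (chr19:10838709-10838958, minus strand) and Slc30a1 (chr13:106021769-106022018, plus strand) are shown because these genes are the textbook targets of MTF1. Each runs 5′ to 3′ on the strand of its gene and ends at the base before the start. Matches are in capitals, and a match on the opposite strand is printed as it reads on the strand of the gene.
Mt1: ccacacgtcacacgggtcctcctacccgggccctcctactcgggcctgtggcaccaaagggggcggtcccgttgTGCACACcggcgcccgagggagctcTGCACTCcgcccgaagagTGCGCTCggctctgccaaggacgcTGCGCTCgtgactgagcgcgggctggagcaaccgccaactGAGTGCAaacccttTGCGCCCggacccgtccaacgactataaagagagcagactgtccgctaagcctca
Mt2A: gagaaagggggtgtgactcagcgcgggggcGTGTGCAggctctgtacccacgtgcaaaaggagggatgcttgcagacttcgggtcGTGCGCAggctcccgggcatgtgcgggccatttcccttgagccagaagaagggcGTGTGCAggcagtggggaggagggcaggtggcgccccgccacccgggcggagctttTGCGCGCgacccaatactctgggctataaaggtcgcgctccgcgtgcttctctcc
Slc30a1: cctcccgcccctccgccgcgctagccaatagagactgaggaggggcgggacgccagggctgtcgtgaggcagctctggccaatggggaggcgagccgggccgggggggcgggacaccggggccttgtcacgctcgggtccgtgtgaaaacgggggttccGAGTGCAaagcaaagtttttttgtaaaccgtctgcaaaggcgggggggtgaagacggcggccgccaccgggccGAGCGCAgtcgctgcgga

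Mt1 held 6 matches between 176 and 49 bases before its start, a number that 9 of all promoters reached or passed. Mt2A held 4, between 220 and 49 bases before its start. In both metallothionein promoters the match nearest the gene lay 55 to 49 bases upstream. Slc30a1 held 2 matches on the opposite strand, at 91 to 85 and 18 to 12 bases upstream. Slc30a4 and Mtf1 held 2 each, and in Slc30a5 the 2 matches, one per strand, overlapped in all but their outermost bases. Slc30a6 and Slc30a9 held none, which says only that these letters are not in this window. A match is a description of sequence, and binding was not measured.

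**Figure D1:**
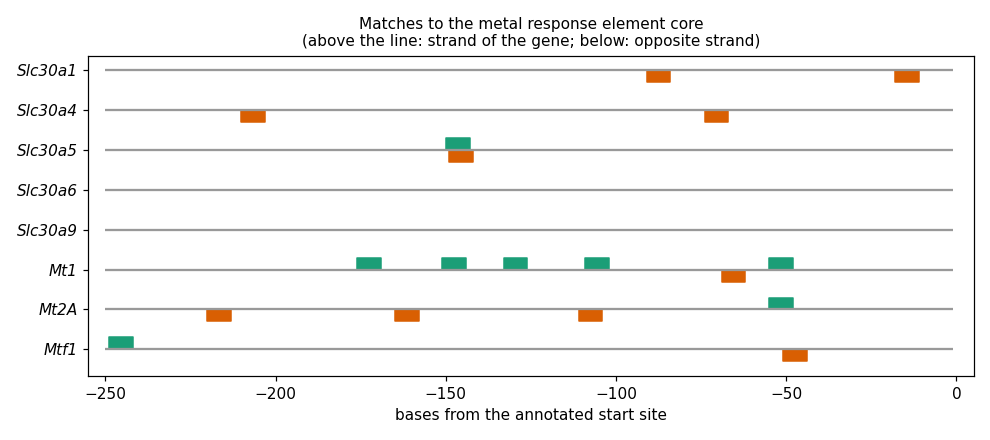
Positions of matches to the core of the metal response element (boxes) in the 250 bases before the annotated start of 8 genes, with the start at 0 on the right; boxes above a line are on the strand of the gene and boxes below it on the opposite strand. Mt1 has 6 boxes and Mt2A 4, Slc30a1, Slc30a4, Slc30a5 and Mtf1 have 2, and Slc30a6 and Slc30a9 have none.

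Levels can be set side by side between genes only per length, so FPKM was used for their order. In siNeg cells Mt2A (31.4 ± 9.997 FPKM, SD, n = 3) and Mt1 (26.5 ± 4.08) stood highest, with overlapping samples. The exporters of the secretory pathway and the mitochondrion came next in the order Slc30a5 (16.6 ± 1.74), Slc30a6 (14.2 ± 0.958), Slc30a9 (11.7 ± 0.771) and Slc30a7 (8.36 ± 0.460), with no overlap between neighbours. Slc30a4 (3.79 ± 0.555) and the exporter of the plasma membrane, Slc30a1 (3.14 ± 0.103), followed and overlapped. Mtf1 was lowest at 1.71 ± 0.140 FPKM. Slc30a3, a vesicular exporter best known from synaptic vesicles and not a member, was the most abundant SLC30 transcript listed, at 46.4 ± 2.44 FPKM.

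The order shifted between groups. Mt2A had the highest mean in all 4 groups, at 22.7 ± 3.40 FPKM in siNeg PE, where it overlapped with Slc30a9, Slc30a5 and Mt1, 55.9 ± 2.06 after knockdown and 42.1 ± 5.44 with both. Mt1 came next in siSlc39a2 at 36.3 ± 2.48 FPKM, but in siSlc39a2 PE its 16.2 ± 1.85 FPKM lay below Slc30a9 (30.1 ± 5.24) and Slc30a5 (21.6 ± 0.745) without overlap. Slc30a9, below Slc30a5 and Slc30a6 in siNeg, was the most abundant exporter among the members in siSlc39a2 PE. Mtf1 stayed lowest in every group, at most 3.07 ± 0.426 FPKM.

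**Figure D2:**
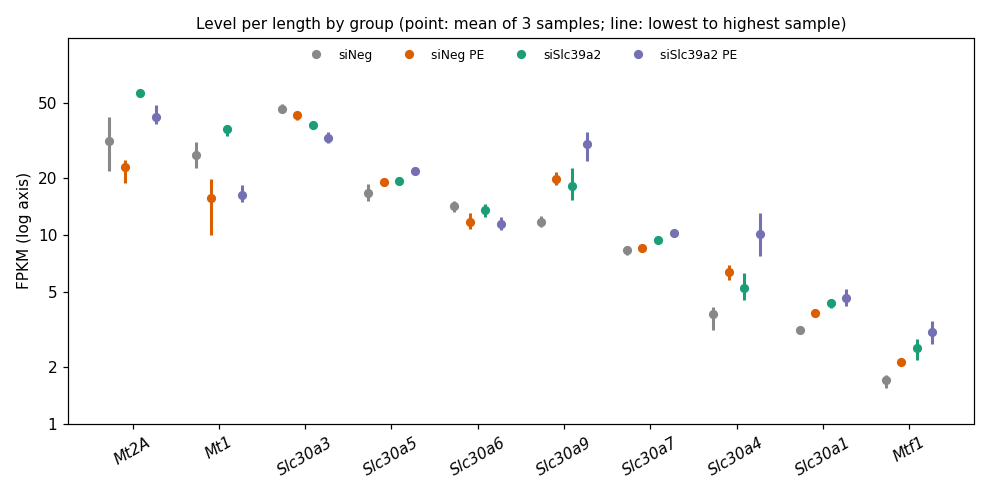
Level per length of each gene and of Slc30a3 in the 4 groups, as FPKM on a log axis; points are means of 3 samples and lines run from the lowest to the highest sample. Mt2A has the highest mean of the members in each group, and Mtf1 the lowest.

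Members were compared between groups by the quasi-likelihood F-test of edgeR on counts, with Benjamini-Hochberg adjustment over all 13967 genes, and a gene was called at an adjusted p below 0.05. Values by sample are given in normalized CPM (counts scaled to the TMM-normalized library size). After knockdown without PE, 4 of 9 members were called, 4 higher and 0 lower, where 49.2% of all genes tested were called, 22.8% higher and 26.4% lower. The median log2 fold change of the members was 0.32, against -0.02 over all genes. In siNeg PE against siNeg, 2 members were higher and 3 lower, where 24% and 25.7% of all genes were (49.7% in all). In siSlc39a2 PE against siNeg PE, 5 were higher and 0 lower, where 29.2% and 28.1% of all genes were (57.3% in all). In siSlc39a2 PE against siSlc39a2, 5 were higher and 1 lower, where 30.7% and 29.3% of all genes were (60% in all). Samples of the 2 groups did not overlap for 5 members higher and 0 lower after knockdown (27.9% and 30.6% of all genes), 4 and 2 with PE in siNeg (29.3% and 30.5%), 7 and 0 after knockdown with PE (31.8% and 31.7%), and 4 and 2 with PE in siSlc39a2 (32.5% and 32.6%). With calls this common across the genome, being called sets no member apart. At the stricter rule that also asks for an absolute log2 fold change above 1, 0 members were called in the first 3 of these comparisons, where 9.78%, 6.6% and 11.6% of all genes were, and 2 in the last, where 10.5% were. With scaling to library size alone in place of TMM, the median log2 fold change of all genes shifted by 0.14 after knockdown and by -0.13 in the interaction, and the share of calls that were higher went from 46.4% to 64.9% after knockdown, from 48.3% to 58.4% with PE in siNeg and from 47.8% to 16.9% in the interaction. No called member changed sign with it, though some calls were gained or lost. The comparisons share groups, so they are not independent of each other.

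**Figure D3:**
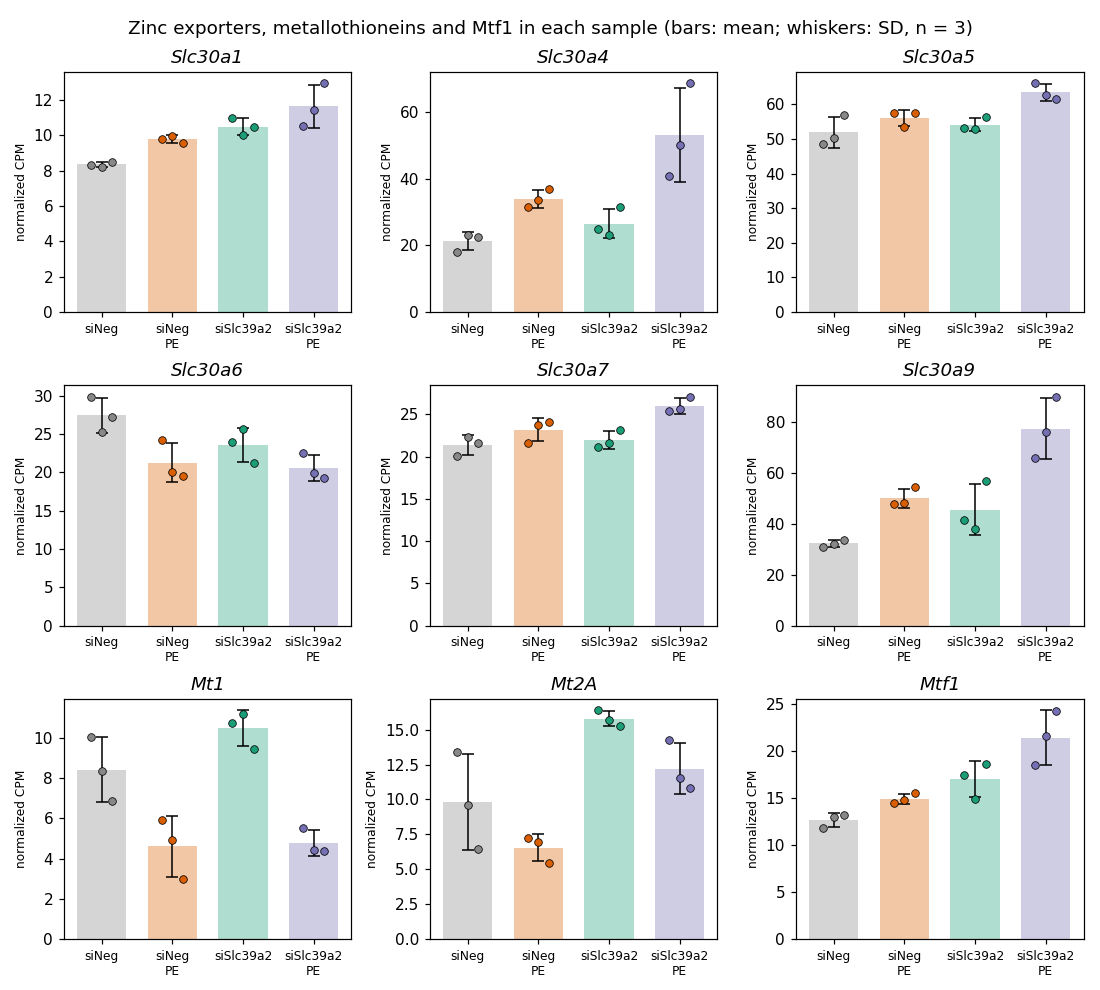
Normalized CPM of each gene in each of the 12 samples (points), with the group mean (bars, from 0) and SD (whiskers, n = 3). Mt2A in siSlc39a2, between 15.3 and 16.4, lies above every siNeg sample, and Mt1 in both PE groups lies below both groups without PE.

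Mtf1, the zinc sensor, had 11.8, 12.96 and 13.2 CPM in siNeg and 17.5, 14.9 and 18.6 in siSlc39a2. All siSlc39a2 samples lay above all siNeg samples. The rise was 1.34-fold (log2 fold change 0.42, SE 0.11, adjusted p = 0.00732). With PE, Mtf1 had 14.4, 14.8 and 15.5 CPM in siNeg PE and 18.5, 21.6 and 24.3 in siSlc39a2 PE. These groups did not overlap either, and the knockdown effect was 1.44-fold (log2 fold change 0.52, SE 0.11, adjusted p = 0.00142). PE alone gave a log2 fold change of 0.24 in siNeg cells that was not called (95% interval -0.01 to 0.48, adjusted p = 0.0952), and 0.34 in siSlc39a2 cells (SE 0.11, adjusted p = 0.0179). The last call was lost without siSlc39a2 replicate 2 (adjusted p = 0.0905) or siSlc39a2 PE replicate 3 (adjusted p = 0.0842), and with library size alone (adjusted p = 0.0554), and the groups behind it overlapped. The PE effect in siNeg was called with the compared groups alone (adjusted p = 0.0359) and with library size alone (adjusted p = 0.0473). The expected counts of Mtf1 were not whole numbers in all samples, which was read as reads shared with another gene although the counting program is not known, so its values are uncertain. Under limma on quantile-normalized log2(FPKM + 1) the knockdown effects were called at the lower values of 0.22 without PE and 0.31 with PE. The PE effect in siSlc39a2 cells was not called there (0.13, adjusted p = 0.0822). Adding 1 shrinks fold changes at FPKM as low as those of Mtf1.

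Mt2A had 13.4, 9.59 and 6.46 CPM in siNeg and 16.4, 15.7 and 15.3 in siSlc39a2. The siNeg samples were widely spread, yet none reached the siSlc39a2 samples. Mt2A rose 1.61-fold after knockdown (log2 fold change 0.69, SE 0.20, adjusted p = 0.0136). With PE, Mt2A had 7.26, 6.93 and 5.47 CPM in siNeg PE and 14.3, 11.5 and 10.8 in siSlc39a2 PE, again without overlap. The knockdown effect there was 1.86-fold (log2 fold change 0.90, SE 0.21, adjusted p = 0.00283), and it was the largest knockdown effect among the 9 members in either state. PE lowered Mt2A in siNeg cells by 33.2% (log2 fold change -0.58, SE 0.21, adjusted p = 0.0369), with overlapping groups. That call rested on single samples: without siNeg replicate 1 the log2 fold change was -0.29 (adjusted p = 0.214), and it was also lost without siNeg replicate 2 (adjusted p = 0.065), siNeg PE replicate 2 (adjusted p = 0.0668) or siNeg PE replicate 3 (adjusted p = 0.136). In siSlc39a2 cells the PE effect of -0.37 was not called (95% interval -0.81 to 0.06, adjusted p = 0.125), although the groups did not overlap, and it was called with the compared groups alone (adjusted p = 0.0245). Its counts were not whole numbers either, so they are uncertain in the same way as those of Mtf1.

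Mt1, the other major metallothionein, had 10.1, 8.34 and 6.86 CPM in siNeg and 10.8, 11.2 and 9.47 in siSlc39a2. These groups overlapped. The log2 fold change of 0.32 was not called (95% interval -0.13 to 0.76, adjusted p = 0.221). With PE, Mt1 had 5.93, 4.92 and 2.97 CPM in siNeg PE and 5.52, 4.45 and 4.36 in siSlc39a2 PE, which overlapped as well, and the knockdown effect was 0.05 (95% interval -0.42 to 0.53, adjusted p = 0.859). The PE effect was the clear one: every PE sample was below every sample without PE. Mt1 fell by 45.2% with PE in siNeg cells (log2 fold change -0.87, SE 0.21, adjusted p = 0.00551) and by 54.4% in siSlc39a2 cells (log2 fold change -1.13, SE 0.21, adjusted p = 0.000625). All counts of Mt1 were whole numbers.

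Mt2A made up 57.6%, 54.0% and 49.0% of the summed Mt1 and Mt2A FPKM of the siNeg samples and 55.5%, 59.0% and 65.2% in siNeg PE. In knockdown cells it made up 60.9%, 58.8% and 62.2%, and with PE 72.6%, 72.5% and 71.6%. The share was highest, and its spread smallest, in siSlc39a2 PE (72.2% ± 0.512, SD, n = 3), where no sample overlapped with any other group, while siNeg PE overlapped with both siNeg and siSlc39a2. The summed level was 58.0 ± 14.1 FPKM in siNeg and 38.4 ± 8.40 in siNeg PE. In knockdown cells it was 92.2 ± 3.57 FPKM, and 58.3 ± 7.27 with PE. Cells with both manipulations had about the mean summed FPKM of untreated control cells, but with more of it as Mt2A. The untreated control samples spanned 44.45 to 72.55 FPKM, and FPKM lacks the TMM scaling used in the tests. These shares are a description, without a test.

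**Figure D4:**
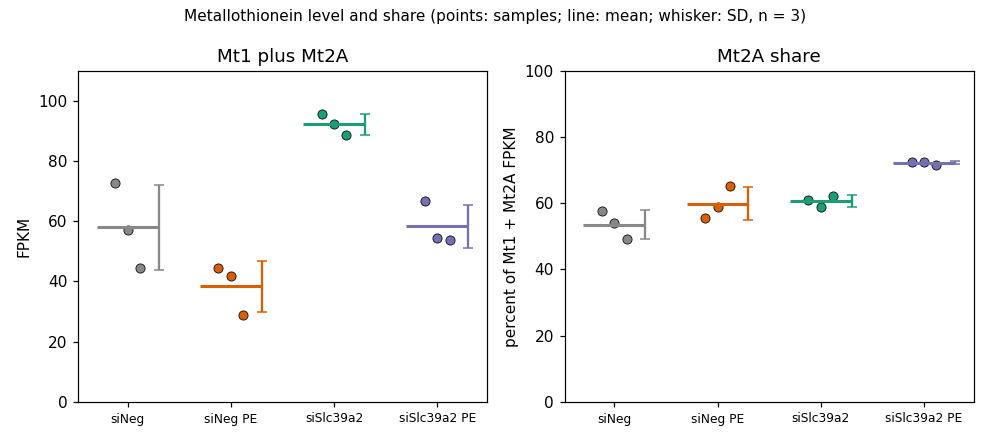
Left, the summed FPKM of Mt1 and Mt2A, and right, the percent of that sum that was Mt2A, in each sample (points), with the mean (horizontal line) and SD (whisker) of the 3 samples of each group. The sum is highest in siSlc39a2 (92.2 ± 3.57) and the Mt2A share in siSlc39a2 PE (72.2% ± 0.512).

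Slc30a1, which moves zinc out across the plasma membrane, had 8.33, 8.22 and 8.51 CPM in siNeg and 10.96, 9.99 and 10.5 in siSlc39a2. The siNeg samples lay close together and below every other sample of the study. Slc30a1 rose 1.25-fold after knockdown (log2 fold change 0.33, SE 0.09, adjusted p = 0.0122). With PE it had 9.80, 9.99 and 9.58 CPM in siNeg PE and 10.6, 11.4 and 12.9 in siSlc39a2 PE. This 1.19-fold rise (log2 fold change 0.25, SE 0.09, adjusted p = 0.0357) was lost without any one of 5 of its 6 samples, with an adjusted p of up to 0.159 without siSlc39a2 PE replicate 3, and it was also lost with DESeq2 (adjusted p = 0.0612), without the filter on low counts (adjusted p = 0.061), with the compared groups alone (adjusted p = 0.0831) and under 3 limma fits (adjusted p = 0.0833 to 0.13). Those limma fits kept the call without PE, at 0.17 to 0.20. The PE effects were not called, at 0.23 in siNeg (95% interval 0.02 to 0.43, adjusted p = 0.062) and 0.15 in siSlc39a2 (95% interval -0.05 to 0.35, adjusted p = 0.175), but that in siNeg was called with the compared groups alone (adjusted p = 0.048) and with library size alone (adjusted p = 0.0206).

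Slc30a9, a mitochondrial zinc exporter, responded to both manipulations. It had 31.0, 32.1 and 33.6 CPM in siNeg and 47.6, 48.2 and 54.3 in siNeg PE. In knockdown cells it had 41.4, 38.0 and 56.8 CPM, and 65.9, 76.1 and 89.8 with PE. The siNeg samples were the lowest of the study and the siSlc39a2 PE samples the highest, and in each of these comparisons the groups did not overlap. Knockdown raised it 1.41-fold without PE (log2 fold change 0.49, SE 0.14, adjusted p = 0.0116) and 1.54-fold with PE (log2 fold change 0.63, SE 0.14, adjusted p = 0.00201). PE raised it 1.55-fold in siNeg cells (log2 fold change 0.63, SE 0.14, adjusted p = 0.00306) and 1.70-fold in siSlc39a2 cells (log2 fold change 0.77, SE 0.14, adjusted p = 0.000522). It was the only member called in all 4 comparisons. Each taken alone called 49.2%, 57.3%, 49.7% and 60% of all genes in the order just given. The share of all genes called in all 4 was not counted, so this does not set Slc30a9 apart from other genes. Its calls held in every alternative fit and without any single sample, except at the stricter rule on fold change.

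Slc30a4, which loads zinc into endosomal and secretory vesicles, had 18.1, 23.0 and 22.7 CPM in siNeg and 31.5, 33.5 and 36.8 in siNeg PE. PE raised it 1.59-fold (log2 fold change 0.67, SE 0.17, adjusted p = 0.00685). In knockdown cells it went from 24.8, 23.2 and 31.4 CPM to 40.9, 50.1 and 68.6, and the PE effect was 2.01-fold (log2 fold change 1.01, SE 0.17, adjusted p = 0.00031). In neither kind of cell did the PE samples overlap with the untreated ones. The knockdown effect was 0.31 without PE, where it was not called (95% interval -0.06 to 0.69, adjusted p = 0.152), and 0.65 with PE (SE 0.17, adjusted p = 0.00532). The effect without PE was called with the compared groups alone (0.35, adjusted p = 0.0485). The siSlc39a2 PE samples were widely spread but all lay above the siNeg PE samples, and without siSlc39a2 PE replicate 3 the knockdown effect with PE was 0.43 (adjusted p = 0.0237). The counts of Slc30a4 were not whole numbers in all samples, though by small fractions, and are uncertain.

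Slc30a5 and Slc30a7 bring zinc into the early secretory pathway, Slc30a5 as a dimer with Slc30a6, and there they supply zinc enzymes such as alkaline phosphatases. Slc30a5 had 48.5, 50.3 and 57.1 CPM in siNeg and 57.4, 53.4 and 57.5 in siNeg PE. In knockdown cells it had 53.3, 52.8 and 56.3 CPM, and 66.1, 62.8 and 61.5 with PE. It was high in the cells with both manipulations and overlapped between the other 3 groups. Its log2 fold change was 0.06 after knockdown without PE (95% interval -0.10 to 0.22, adjusted p = 0.533), 0.18 with PE (95% interval 0.02 to 0.34, adjusted p = 0.0513) and 0.11 with PE in siNeg (95% interval -0.05 to 0.27, adjusted p = 0.223). PE raised it 1.17-fold in siSlc39a2 cells (log2 fold change 0.23, SE 0.07, adjusted p = 0.0154), a call lost without siSlc39a2 replicate 1 (adjusted p = 0.0501), siSlc39a2 replicate 2 (adjusted p = 0.059) or siSlc39a2 PE replicate 1 (adjusted p = 0.0709), under limma on log2(count + 1) (adjusted p = 0.0517) and with library size alone (adjusted p = 0.068). The knockdown effect with PE was called with DESeq2 (adjusted p = 0.036), and both knockdown effects with library size alone (adjusted p = 0.0415 without PE and 0.0474 with PE).

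Slc30a7 had 20.02, 22.3 and 21.7 CPM in siNeg and 21.6, 23.8 and 24.1 in siNeg PE. In knockdown cells it had 21.1, 21.6 and 23.2 CPM, and 25.4, 25.6 and 27.1 with PE. As for Slc30a5, the siSlc39a2 PE samples lay above all others. The knockdown effects of 0.04 (95% interval -0.13 to 0.21, adjusted p = 0.683) and, with PE, 0.17 (95% interval 0.00 to 0.33, adjusted p = 0.0776) were not called, nor was the PE effect of 0.12 in siNeg (95% interval -0.05 to 0.29, adjusted p = 0.21). PE raised it 1.19-fold in siSlc39a2 cells (log2 fold change 0.25, SE 0.08, adjusted p = 0.0141), a call lost without siSlc39a2 replicate 1 (adjusted p = 0.0566) or replicate 2 (adjusted p = 0.0502). With library size alone (adjusted p = 0.0704) and under limma on quantile-normalized FPKM (adjusted p = 0.15 and 0.16) the call was lost, and under the latter the small effects of knockdown and of PE in siNeg changed sign, while the knockdown effect with PE was called (adjusted p = 0.0313 and 0.0365).

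Slc30a6, the partner of Slc30a5, ran the other way. It had 29.9, 25.3 and 27.2 CPM in siNeg and 24.2, 20.05 and 19.5 in siNeg PE, which did not overlap, and it fell by 22.5% with PE (log2 fold change -0.37, SE 0.11, adjusted p = 0.0137). The call was lost without siNeg replicate 1 (adjusted p = 0.0582), siNeg PE replicate 2 (adjusted p = 0.0569) or siNeg PE replicate 3 (adjusted p = 0.0641). In siSlc39a2 it had 23.99, 25.6 and 21.2 CPM and in siSlc39a2 PE 22.5, 19.9 and 19.2, which overlapped, and the PE effect of -0.20 was not called (95% interval -0.43 to 0.03, adjusted p = 0.127), but it was called with library size alone (adjusted p = 0.038) and without siSlc39a2 replicate 3 (adjusted p = 0.0373). The knockdown effects were -0.22 without PE (95% interval -0.45 to 0.02, adjusted p = 0.112) and -0.05 with PE (95% interval -0.28 to 0.19, adjusted p = 0.722).

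**Figure D5:**
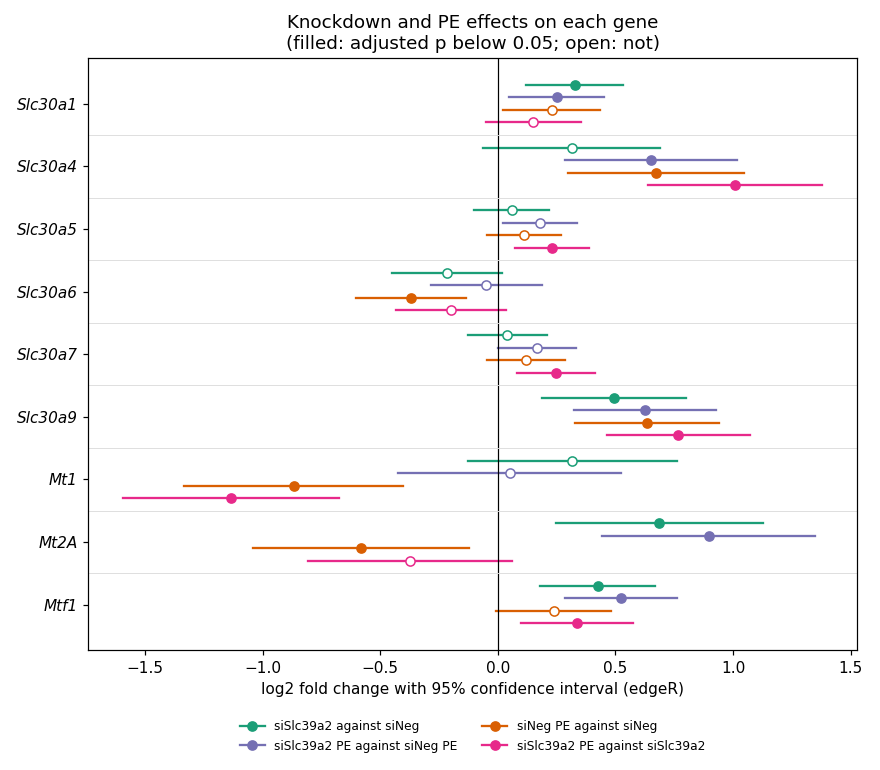
Log2 fold change (points) and 95% confidence interval (lines) of each gene for the knockdown without and with PE and for PE in siNeg and siSlc39a2 cells, from edgeR; filled points have an adjusted p below 0.05. Slc30a9 has filled points to the right of 0 in all 4 comparisons, and Mt1 has filled points to the left of 0 for PE in both kinds of cells.

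Cells with both manipulations were also compared with untreated control cells. In siSlc39a2 PE against siNeg, 6 members were higher and 2 lower, where 38% and 37.3% of all genes were (75.3% in all). The groups did not overlap for the same number of members, 6 higher and 2 lower, where 38.7% and 38.2% of all genes did not. Slc30a4 rose 2.50-fold (log2 fold change 1.32, SE 0.17, adjusted p = 1.42e-05) and Slc30a9 2.40-fold (log2 fold change 1.26, SE 0.14, adjusted p = 3.83e-06), and these were the 2 members past the stricter rule, which 29.4% of all genes passed. Mtf1 rose 1.69-fold (adjusted p = 3.94e-05), Slc30a1 1.39-fold (adjusted p = 0.000472), and Slc30a5 and Slc30a7 1.22-fold each (adjusted p = 0.00287 and 0.00417). Under limma on log2(FPKM + 1) the log2 fold changes of Mtf1 and Slc30a1 were 0.35 and 0.16 and still called. That of Slc30a7 was 0.055 and not called (adjusted p = 0.364). The added 1 shrinks fold changes of genes with low FPKM. With log2(FPKM + 0.1) the values of Mtf1, Slc30a1 and Slc30a7 were 0.48, 0.20 and 0.060, with the same calls. Mt1 fell by 43.3% (adjusted p = 0.00359) and Slc30a6 by 25.1% (adjusted p = 0.00341). Mt2A was not called, with a log2 fold change of 0.31 (95% interval -0.13 to 0.76, adjusted p = 0.179), but without siNeg replicate 1 it was, at 0.60 (adjusted p = 0.00893).

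The interaction, the knockdown effect with PE less that without PE, was called for 0 of 9 members by edgeR, where 3.61% of all genes tested were called, 1.73% higher and 1.88% lower (0.988% at the stricter rule). At an unadjusted p below 0.05 the count was 0 as well, and it was 0 by DESeq2 and in every other fit. The largest was Slc30a4 at 0.34 (95% interval -0.19 to 0.86, adjusted p = 0.558). The intervals of Mt1 (-0.92 to 0.39) and Mt2A (-0.42 to 0.84) leave room for sizeable differences in either direction, so the data do not show that knockdown acted alike with and without PE.

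Across the 12 samples, Pearson r between log2 CPM was 0.97 for Slc30a4 and Slc30a9, 0.95 for Slc30a1 and Mtf1, and 0.95 for Slc30a4 and Slc30a7. Slc30a6 ran against the other exporters, with r between -0.60 for Slc30a5 and -0.86 for Slc30a4. The metallothioneins correlated with each other at 0.67, and Mt1 with Slc30a4 at -0.73, while Mt2A and Slc30a4 stood at -0.10. These coefficients describe samples that fall into 4 groups and share their library scaling. Among all tested genes with a mean log2 CPM above 1, those most like Slc30a4 were Itch, Galnt1 and Ppp2r5e (r = 0.997, 0.996 and 0.996), those most like Slc30a9 were Ppp3r1, Brd7 and RGD1564541 (r = 0.996, 0.994 and 0.993), and those most like Mtf1 were Ppp4r3b, Rcbtb1 and Btbd7 (r = 0.989, 0.989 and 0.987). For Mt1 they were RGD1308134, Sertad1 and LOC103694872 (r = 0.984, 0.973 and 0.972), and for Mt2A they were Polr2d, Polr3e and Znhit2 (r = 0.988, 0.970 and 0.965). For Slc30a1, Slc30a5, Slc30a6 and Slc30a7 the gene most alike was LOC102547287 (0.984), Igsf9 (0.925), Aph1a (0.955) and Inpp5f (0.988). No member was among the 3 genes most like another member.

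The wider pathway was read from lists of related genes, counted by call. Of all genes tested, 22.8% were higher and 26.4% lower after knockdown, and 24% and 25.7% with PE in siNeg cells. The counts of each list below are to be read beside these shares. Some lists share genes (Slc39a10, Gclc, Fth1 and Txnrd1), so their counts are not independent. The genes named are those with the largest changes in their list. Of the SLC30 family, 9 of 11 genes were tested, and after knockdown 3 were higher and 1 lower. Beside the members, Tmem163, a zinc efflux protein related to the family, rose 1.40-fold after knockdown (log2 fold change 0.49, SE 0.17, adjusted p = 0.0327). It fell with PE in siNeg cells (log2 fold change -1.34, SE 0.18, adjusted p = 0.000117). Slc30a3 fell by 26.0% after knockdown (log2 fold change -0.43, SE 0.08, adjusted p = 0.000693), from 98.5, 86.0 and 85.8 CPM to 68.6, 68.2 and 63.1. Of the metallothioneins, Mt3 fell after knockdown, from 20 to 32 expected counts in siNeg to 1 to 10 in siSlc39a2 (log2 fold change -2.33, SE 0.59, adjusted p = 0.00583), so the 3 tested metallothioneins split into 1 higher, 1 lower and 1 not called.

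Of the SLC39 importers, 11 of 14 were tested, and after knockdown 1 was higher and 5 lower, the targeted Slc39a2 among them. Slc39a9, an importer of the Golgi and cell surface whose counts were not whole numbers and are uncertain, rose (log2 fold change 0.52, SE 0.08, adjusted p = 9.47e-05), and Slc39a6, Slc39a1 and Slc39a13 fell (log2 fold changes -0.35, -0.30 and -0.27, adjusted p = 0.00446, 0.0124 and 0.00328). With PE in siNeg cells 4 importers were higher and 3 lower.

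Other genes reported to respond to zinc or MTF1 did not share a direction. The list held no expected direction for each gene, so its counts give no reading of MTF1 activity. Of 10 such genes, 3 were higher and 4 lower after knockdown, with a median log2 fold change of -0.26, and with PE in siNeg cells 4 were higher and 5 lower. Hmox1, which encodes the inducible heme oxygenase, went from 46.1, 43.4 and 42.8 CPM in siNeg to 87.7, 88.4 and 72.1 in siSlc39a2, a 1.88-fold rise (log2 fold change 0.91, SE 0.11, adjusted p = 1.69e-05). Txnrd1, the cytosolic thioredoxin reductase, rose 1.60-fold (log2 fold change 0.68, SE 0.06, adjusted p = 6.13e-07). The transcription factor gene Cebpa (log2 fold change -0.78, SE 0.14, adjusted p = 6e-04) and the placental growth factor gene Pgf (log2 fold change -0.57, SE 0.16, adjusted p = 0.011) fell.

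The secretory-pathway exporters feed zinc to enzymes that act outside the cell. Of 9 genes tested from a list of such enzymes, which also holds the cytosolic Lta4h, 1 was higher and 5 lower after knockdown. Enpp3, an ectonucleotide pyrophosphatase with counts that were not whole numbers and are uncertain (log2 fold change -1.12, SE 0.12, adjusted p = 1e-05), the extracellular superoxide dismutase gene Sod3 (log2 fold change -1.04, SE 0.09, adjusted p = 1.01e-06) and Ace, angiotensin-converting enzyme (log2 fold change -0.96, SE 0.13, adjusted p = 5.82e-05), fell. Enpp2, which encodes autotaxin, rose from 5 to 17 expected counts in siNeg to 24 to 36 in siSlc39a2 (log2 fold change 1.51, SE 0.41, adjusted p = 0.00867). Of 8 fibroblast markers 6 were lower and 1 higher in the same comparison, and the part of fibroblasts in these falls was not tested.

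Of 13 genes of copper and iron handling, 1 was higher and 6 lower after knockdown. The ferritin genes Ftl1 (log2 fold change -1.01, SE 0.09, adjusted p = 9.86e-07) and Fth1 (log2 fold change -0.53, SE 0.11, adjusted p = 0.00203) fell, as did the copper exporter gene Atp7b (log2 fold change -0.69, SE 0.17, adjusted p = 0.00415), and their counts were not whole numbers in all samples and are uncertain. Slc25a37, the mitochondrial iron importer mitoferrin, rose (log2 fold change 0.85, SE 0.12, adjusted p = 5.69e-05). Of 8 genes of glutathione synthesis and redox buffering, 4 were higher and 1 lower. Gclm, a subunit of the enzyme that starts glutathione synthesis, rose (log2 fold change 0.71, SE 0.09, adjusted p = 3.44e-05), as did the thioredoxin gene Txn1 (log2 fold change 0.36, SE 0.12, adjusted p = 0.023), while the quinone reductase gene Nqo1 fell (log2 fold change -1.31, SE 0.09, adjusted p = 7.62e-08).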

How the data were processed

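RNA-seq of NRVMs in 4 groups of 3 labelled biological replicates was analysed from processed values. For 18483 genes the authors deposited expected counts, not normalized, which need not be whole and were taken to split reads that match several genes, and FPKM values, which are scaled to gene length and library size. The submitters' processing notes name HISAT, Bowtie2 and the build Rnor_6.0. The counting program and the annotation are not given in the sources used here. Whole numbers made up 78.7% of the expected counts, and 6 of the 9 members were whole in every sample. Every pair of replicates differed beyond sampling noise of the counts (chi-square over its degrees of freedom, 4.73 to 33.3), so all 12 were counted as separate samples. P-values measure the spread between these cultures. The detection floor of 3 counts came to 0.105 to 0.125 CPM before normalization, which allows for counting error alone.

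After rounding, counts were filtered by filterByExpr (4516 genes left out), TMM-normalized and fitted in a single model of 4 groups (8 residual degrees of freedom) with edgeR 4.0.16 in R 4.3.3. Its quasi-likelihood F-test compared the groups, and p-values were adjusted over all genes tested (Benjamini-Hochberg). The paper's methods name limma on normalized values, which is an alternative here since the files hold counts. SE is the absolute log2 fold change over the square root of F. CPM used TMM-normalized library sizes, and correlations used log2 CPM with a prior count of 2. The members, the gene lists and the tests were chosen with earlier results of these data known. Named genes are the 9 members, Slc39a2, Nppa and Nppb, up to 4 called genes of each list with the largest change in siSlc39a2 against siNeg, and for each member the 3 genes with the highest Pearson r. Slc30a3 was named for its level as well, after it was seen. Alternatives were RLE size factors, DESeq2 1.42.0, no filter, the compared groups alone, a replicate block, limma 3.58.1 on quantile-normalized log2(FPKM + 1), log2(FPKM + 0.1) and log2(count + 1), a stricter call rule, and each sample left out. Scaling to library size alone was added after seeing the data. The fits were tested on simulated data. Promoter sequences came from RefSeq (GRCr8). The sequence of the siRNA and protein sequences were not used here.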

Additional observations from a re-analysis of the deposited data

How the results depend on the processing

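With an absolute log2 fold change above 1 also required, members called numbered 0 in siSlc39a2 against siNeg, 0 in siNeg PE against siNeg, 0 in siSlc39a2 PE against siNeg PE, 2 in siSlc39a2 PE against siSlc39a2 and 2 in siSlc39a2 PE against siNeg, and all genes called numbered 1366, 922, 1621, 1469 and 4113, and 138 in the interaction. The interaction called 504 genes in the main analysis, 825 with DESeq2, 805 with limma on log2(FPKM + 1) and 886 with library size alone, an alternative chosen after seeing the data. With each sample left out in turn, members called ranged from 4 to 4 after knockdown, 3 to 5 with PE in siNeg, 4 to 5 after knockdown with PE, 3 to 7 with PE in siSlc39a2 and 8 to 9 with both, with 0 in the interaction. All genes called then ranged from 5805 to 6249, 5117 to 6875, 7009 to 8024, 7035 to 8548, 9940 to 10407 and 255 to 537. Interaction counts fell to 269 without siNeg replicate 2, 302 without siNeg PE replicate 1, 267 without siNeg PE replicate 2, 281 without siSlc39a2 PE replicate 2, 255 without siSlc39a2 replicate 1 and 275 without siSlc39a2 replicate 2. The member count fell to 3 without siNeg replicate 1, siNeg PE replicate 2 or siNeg PE replicate 3 for PE in siNeg, and to 3 without siSlc39a2 replicate 2 for PE in siSlc39a2. Where a sample was left out, fewer samples stood behind the spread.

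Signs changed only for values that were not called. Slc30a7 had log2 fold changes of -0.039, -0.042 and -0.063 after knockdown under limma on log2(FPKM + 1), on log2(FPKM + 0.1) and on log2(count + 1), and -0.094 and -0.103 with PE in siNeg under the first and second of these. With each sample left out its knockdown effect ranged from -0.0031 (without siNeg replicate 1) to 0.073. Slc30a1 had -0.0068 and -0.0083 with PE in siSlc39a2 under the same FPKM fits. Under library size alone the interactions of Slc30a5, Slc30a7, Slc30a9 and Mtf1 were -0.012, -0.0070, -0.0018 and -0.034. After knockdown with PE, Slc30a6 ranged from -0.12 to 0.054 (without siNeg PE replicate 1) and Mt1 from -0.19 (without siNeg PE replicate 3) to 0.27, also below 0 without siSlc39a2 PE replicate 1. The interaction of Mt2A ranged from -0.081 (without siNeg replicate 1) to 0.43. The cause of these changes was not tested. Mt2A after knockdown lost its call under limma on log2(count + 1) (adjusted p = 0.0602, between 0.00091 and 0.0602 over all alternatives). With PE in siNeg it lost its call under all 3 limma fits (adjusted p = 0.0857, 0.105 and 0.055), the compared groups alone (0.0862) and library size alone (0.0589).

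Labels give all groups replicate numbers 1 to 3. In no comparison did every same-numbered pair deviate together beyond a correlation of 0.1 (range -0.09 to 0.32). Some pairs did, such as replicate 1 of siNeg and siNeg PE (0.315, against at most -0.095 with other numbers). The labels do not say whether a number stands for a shared culture. The number was therefore left out of the main model and used as a block in an alternative. With the replicate block, members called were 6, 6, 7, 8, 9 and 0 in the order above, the interaction last, and all genes called were 7952, 8030, 8869, 9081, 10889 and 1053. The block gained Slc30a4 (adjusted p = 0.0294) and Slc30a6 (0.0367) after knockdown, Mtf1 (0.0442) with PE in siNeg, Slc30a5 (0.029) and Slc30a7 (0.028) after knockdown with PE, Slc30a6 (0.0447) and Mt2A (0.0266) with PE in siSlc39a2, and Mt2A (0.0445) with both. Not every sample correlated best with its own number. Some members did follow the number: in every group, replicate 3 had the lowest CPM of Mt1 and Mt2A and the highest of Slc30a9 and Mtf1. None of the other members kept the same place for replicate 3 in every group. This shared order also enters the correlations between members, and its cause was not tested.

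Slc39a2, Mt3 and Enpp2 rest on few counts, 3 samples a group limit the interaction test, and counts that are not whole numbers limit Slc30a4, Mt2A and Mtf1.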
